A study of Arabidopsis thaliana with 12 samples.

Results

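Transcripts of 4 genes of the mTERF family, AT3G18870, AT1G79220, AT3G46950 and AT1G61990, were followed on expression arrays of Arabidopsis thaliana (thale cress) plants in photoinhibitory cold and after recovery. The 4 genes were chosen by their measured differences between cold and recovery, so those differences are given as a description and are not tested. They are 4 of the 689 genes that had a probe of their own on an array of 3439 probes, and 4 of the 8 mTERF genes measured in that way. Both groups were wild-type plants of ecotype Columbia 0. The cold group was kept at 4 °C under medium light for 24 h, and the recovery group was then moved to 20 °C under the same light for a further 24 h. There were 6 samples of total RNA per group, numbered 1 to 6, and the labels name neither the tissue nor the age of the plants.

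The mTERF proteins are named after the mitochondrial transcription termination factor of animals. They bind nucleic acids through repeated helical motifs, are encoded in the nucleus and are imported into chloroplasts or mitochondria. In plants, members of the family are needed for organelle transcription, for the splicing of organelle introns and for the making of organelle ribosomes, and mutants of several of them are pale or respond abnormally to stress. The annotation used here gives each of the 4 genes a locus name and no symbol, so no separate role is stated for any of them.

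Within a group, sample 1 matched sample 2 best, 3 matched 4 and 5 matched 6; each such pair was averaged, leaving n = 3 per group. No label says that samples came from separate plants, so a p-value here reflects the scatter of these samples alone, possibly technical. No date or batch is given either, and a batch that coincides with a group cannot be told apart from it. Precision is limited by the number of arrays. The deposited signals are linear, and their unit is not given. The median signal of a sample lay between 0.276 and 0.315 in cold and between 0.0971 and 0.128 in recovery, so the middle of the distribution was lower in recovery. Values were therefore also placed on a log2 scale after quantile normalization, which gives every sample the same distribution, and a difference on that scale is relative to the other probes. Since the arrays measure bulk RNA, fewer cells of a type and less RNA per cell cannot be told apart.

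An opposite response, with AT3G18870 lower and the other 3 genes higher in recovery, was seen relative to the other probes of an array. It was not seen in the deposited signals, where AT3G18870 was 20.1 times lower in recovery, AT1G61990 was also lower, and AT1G79220 and AT3G46950 overlapped between the groups.

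AT3G18870 was the gene with the large difference. Its deposited signal in cold was 1.45 at the lowest, 1.53 at the median and 1.83 at the highest of the 6 samples. In recovery it was 0.0084 at the lowest, 0.0901 at the median and 0.127 at the highest. The 6 recovery samples all lay below the 6 cold samples, and recovery sample 4 fell below the constant of 0.0415 that was added before taking logarithms. The averaged pairs stood at 1.79, 1.47 and 1.53 in cold and at 0.0807, 0.0677 and 0.0901 in recovery, which gives 1.60 ± 0.168 against 0.0795 ± 0.0113 (SD, n = 3). On the quantile-normalized log2 scale the difference was -2.96 ± 0.18 (SE, n = 3 per group), a 7.80-fold lower value. It was the 7th lowest of the 690 probes with a single gene and the 45th lowest of all 3439. Recovery signals were close to the added constant, and the size moved with it, from -3.17 with the constant halved to -2.66 with it doubled.

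AT1G79220 had overlapping deposited signals in cold and recovery. Its 6 cold samples had a lowest value of 0.233, a median of 0.273 and a highest value of 0.461. The 6 recovery samples had a lowest value of 0.214, a median of 0.323 and a highest value of 0.368. The cold average of 0.305 ± 0.0580 and the recovery average of 0.312 ± 0.0216 (SD, n = 3) differed by less than the spread between replicates. Relative to the other probes it was higher in recovery: its quantile-normalized difference was 1.14 ± 0.19 (SE, n = 3 per group), and all 6 recovery samples lay above all 6 cold samples on that scale. Cold sample 3 was the highest of the 6 cold samples on both scales. Its deposited signal of 0.461 lay above every recovery sample, and its quantile-normalized value of -1.53 was the cold value nearest to the recovery range of -1.30 to -0.79.

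AT3G46950 had groups that overlapped on both scales. Its deposited signal ran from 0.184 through a median of 0.265 to 0.373 in cold. It ran from 0.0922 through a median of 0.234 to 0.405 in recovery. As deposited, 2 recovery samples lay below all cold samples and 1 above them, and the averages were 0.266 ± 0.0772 and 0.229 ± 0.0573 (SD, n = 3). After quantile normalization the difference was 0.90 ± 0.25 (SE, n = 3 per group), and 5 of 6 recovery samples exceeded every cold sample. The exception was recovery sample 4, at -2.21, which lay within the cold range of -2.79 to -1.95.

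AT1G61990 had groups that did not overlap on either scale, in opposite directions. Its deposited signal in cold was 0.123 at the lowest, 0.153 at the median and 0.184 at the highest. In recovery it was 0.0734, 0.0937 and 0.0997 in the same order. The 6 recovery samples were all below the 6 cold samples, and the averages were 0.152 ± 0.0228 and 0.0912 ± 0.00786 (SD, n = 3), a ratio of 0.601. After quantile normalization the same samples were all above the cold samples, with a difference of 0.64 ± 0.23 (SE, n = 3 per group). As deposited, 65.0% of probes had a lower difference than this gene.

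**Figure D1:**
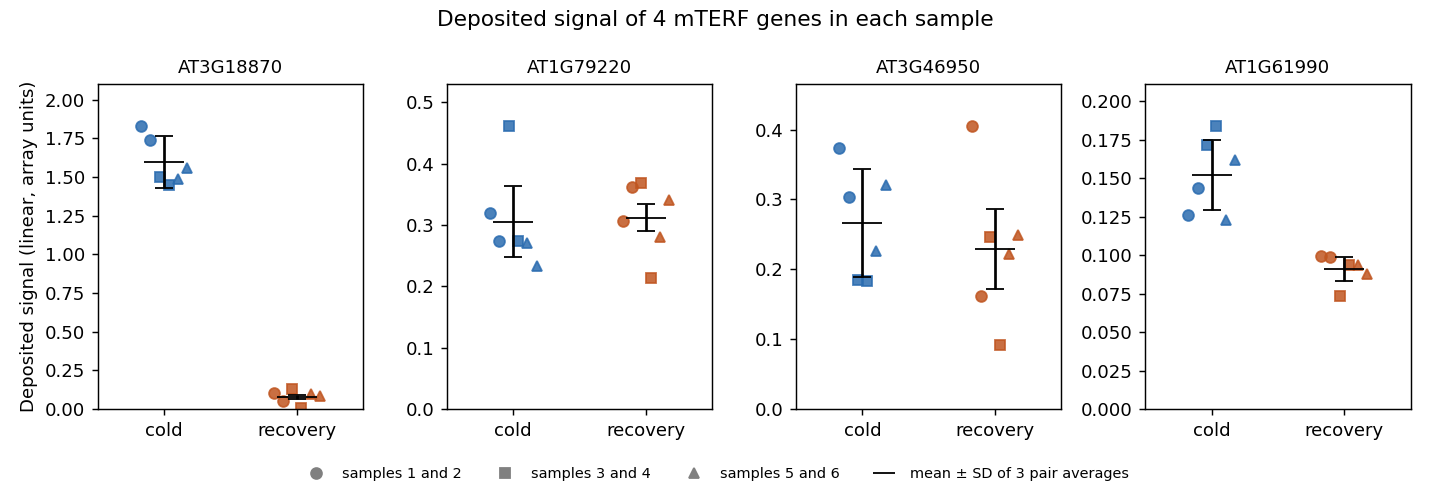
Deposited linear signal of the 4 genes in each of the 6 cold (blue) and 6 recovery (orange) samples, each panel with its own axis from 0; marker shapes show the averaged pairs, and black bars the mean ± SD of the 3 pair averages. AT3G18870 and AT1G61990 do not overlap between groups, with means of 1.60 against 0.0795 and 0.152 against 0.0912, whereas AT1G79220 and AT3G46950 do.

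Groups that do not overlap were common on this array. After quantile normalization every recovery sample was above every cold sample for 19.0% of all probes and below for 15.9%. Of the 4 genes, 2 were wholly above, 1 wholly below and 1 overlapped. As deposited, every recovery sample was above for 4.91% of probes and below for 49.2%. On that scale 2 of the 4 genes were wholly below and 2 overlapped. The genes were picked on the same contrast, so nothing is read from these counts.

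The place of each gene among all probes of the same sample does not depend on any scaling that keeps the order of probes. Probes tied at 0 made up 5.26% to 6.57% of a cold sample and 11.3% to 16.4% of a recovery sample. How far that difference bears on the places of dim genes was not tested. AT3G18870 stood at the 88.4th to 90.3rd percentile in the 6 cold samples and at the 19.0th to 57.7th in the 6 recovery samples, with averages of 89.5% ± 0.692 and 40.5% ± 5.57 (SD, n = 3). AT1G79220 stood at 50.3% ± 5.13 in cold and 74.9% ± 0.697 in recovery, and its lowest recovery sample, at 70.2%, was above its highest cold sample, at 65.6%. AT3G46950 stood at 44.8% ± 10.5 and 66.3% ± 5.37 with overlapping samples. AT1G61990 stood at 28.1% ± 3.52 and 45.2% ± 2.41 without overlap.

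**Figure D2:**
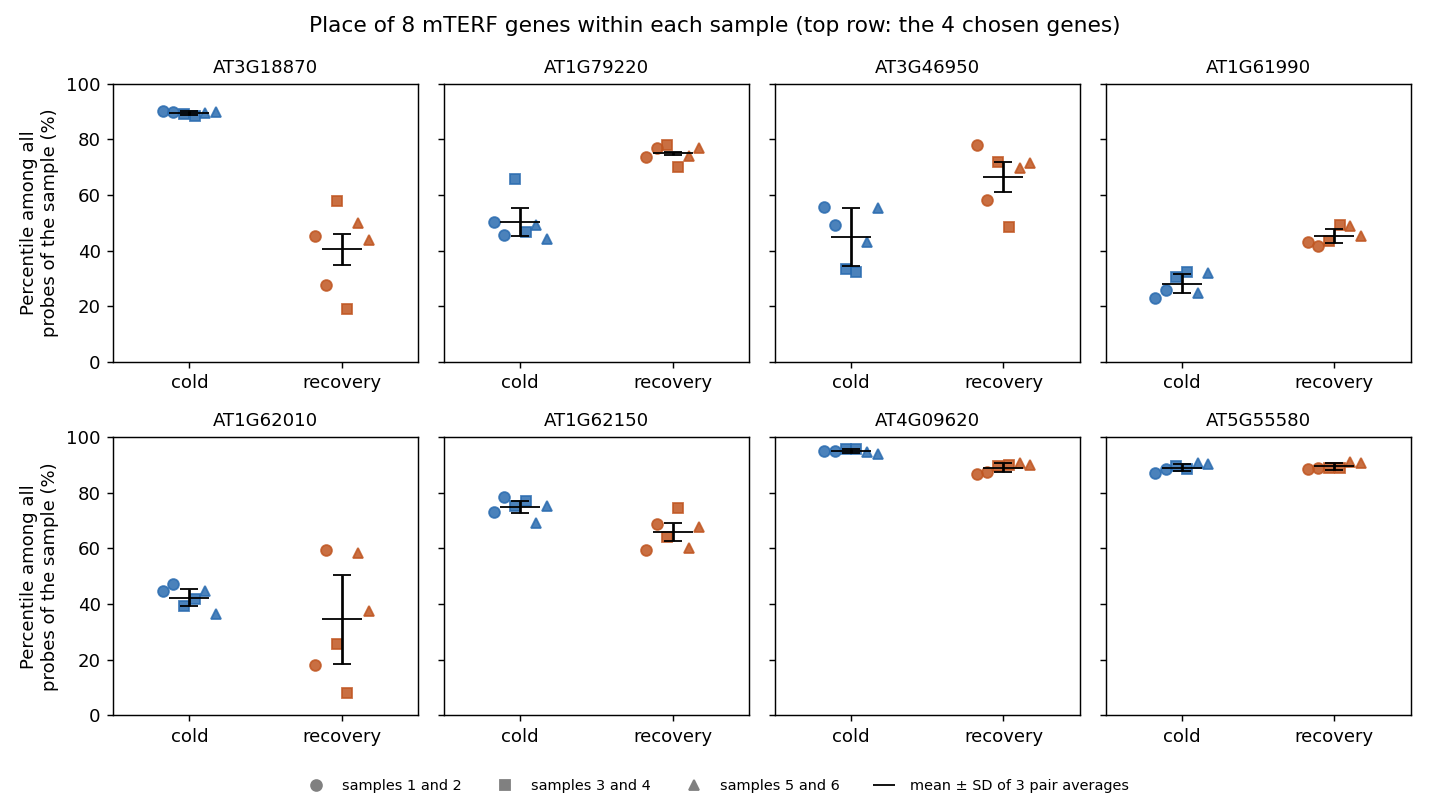
Percentile of 8 mTERF genes among all 3439 probes of the same sample, in 6 cold (blue) and 6 recovery (orange) samples; bars are the mean ± SD of the 3 pair averages. AT3G18870 stands at 89.5% in cold and 40.5% in recovery, and the other 3 chosen genes stand higher in recovery; AT5G55580 stands at 89.1% and 89.5%, and the remaining 3 genes have lower means in recovery.

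The differences were compared under 5 scalings. AT3G18870 was between -2.68 (samples centred on their medians) and -3.85 (as deposited). AT1G79220 was between 1.13 (cyclic loess) and 1.33 (scaled before the constant was added) in the 4 scaled versions, and at 0.04 as deposited. AT3G46950 was at 0.90 after quantile normalization, 0.94 when centred and 0.96 with cyclic loess, and at -0.24 as deposited. AT1G61990 was between 0.55 and 0.75 when scaled, and at -0.54 as deposited. The median probe itself stood at -0.86 as deposited and between 0.02 and 0.31 under the 4 scalings. Relative to the median probe as deposited, the 4 genes were at -2.99, 0.90, 0.63 and 0.33, in the order AT3G18870, AT1G79220, AT3G46950, AT1G61990. Centring shifts every probe of a sample equally, so relative to the median probe it only repeats the values as deposited. The signs relative to the median probe were the same in all 5 versions, of which these are not separate checks. The genes were picked on this contrast, so nothing is read from that.

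**Figure D3:**
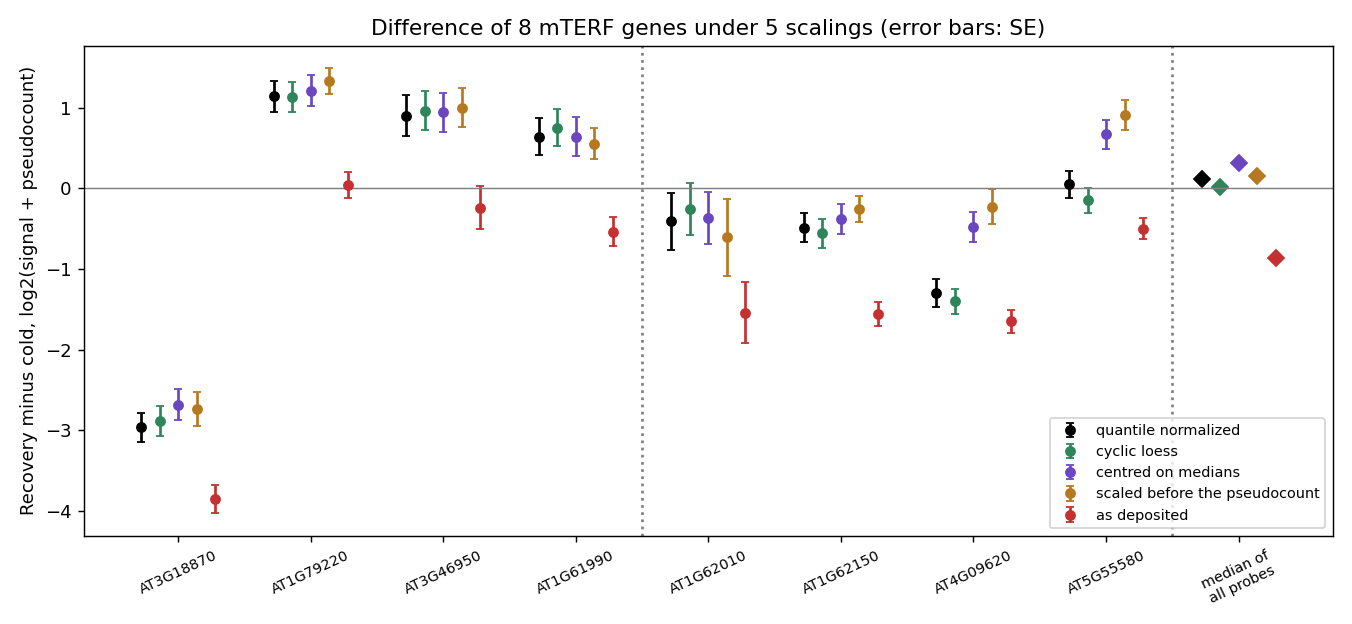
Recovery minus cold on the scale of log2(signal + 0.0415) for the 4 chosen genes (left), the 4 other mTERF genes (middle) and the median of all probes (diamonds, right) under 5 scalings; error bars are SE. The deposited values (red) of every gene lie below the scaled ones, and the median probe moves from 0.11 after quantile normalization to -0.86.

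The family was covered in part. Of 35 mTERF loci listed for Arabidopsis, 8 had a probe of their own, 11 more stood only on probes that list several genes, and 16 were not listed. The 4 measured genes that were not among those chosen were AT5G55580 (mTERF9, a chloroplast protein), AT4G09620, AT1G62010 and AT1G62150. In the limma comparison of recovery with cold, 1 of these 4 was lower, 0 were higher and 3 did not pass (2 lower and 0 higher at an unadjusted p under 0.05); over all probes 19.3% passed as lower and 21.4% as higher. With 4 genes, a single call is near that background. Their median difference was -0.45, against 0.11 for all probes.

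AT4G09620 was the gene that passed. Its deposited signal went from 3.33 ± 0.410 in cold to 1.03 ± 0.146 in recovery (SD, n = 3), and all 6 recovery samples lay below all 6 cold samples. It fell by 1.30 ± 0.17 on the quantile-normalized log2 scale (SE, n = 3 per group; limma, adjusted p = 1.88e-04). The fall depended on the scaling: scaling the samples to 1 median ahead of the added constant gave -0.23 (limma, adjusted p = 0.432).

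AT1G62150 was at -0.49 ± 0.18 and just missed the threshold (adjusted p = 0.0539, limma). Cold averages were 0.671 ± 0.0850 and recovery averages 0.203 ± 0.0250 in deposited signal (SD, n = 3), and it passed in 11 of 28 alternative settings. AT1G62010 was at -0.41 ± 0.35 (adjusted p = 0.372, limma); it was listed at 0 in recovery sample 4, and its recovery SD on the quantile-normalized log2 scale, 0.964, was the highest of the 8 genes. AT5G55580 was at 0.05 ± 0.17 (adjusted p = 0.833, limma). Its deposited signal averaged 1.55 ± 0.122 for cold samples and 1.09 ± 0.155 for recovery samples (SD, n = 3). Its sign and its call changed with the scaling, from -0.50 as deposited to 0.91 when scaled before the constant.

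**Figure D4:**
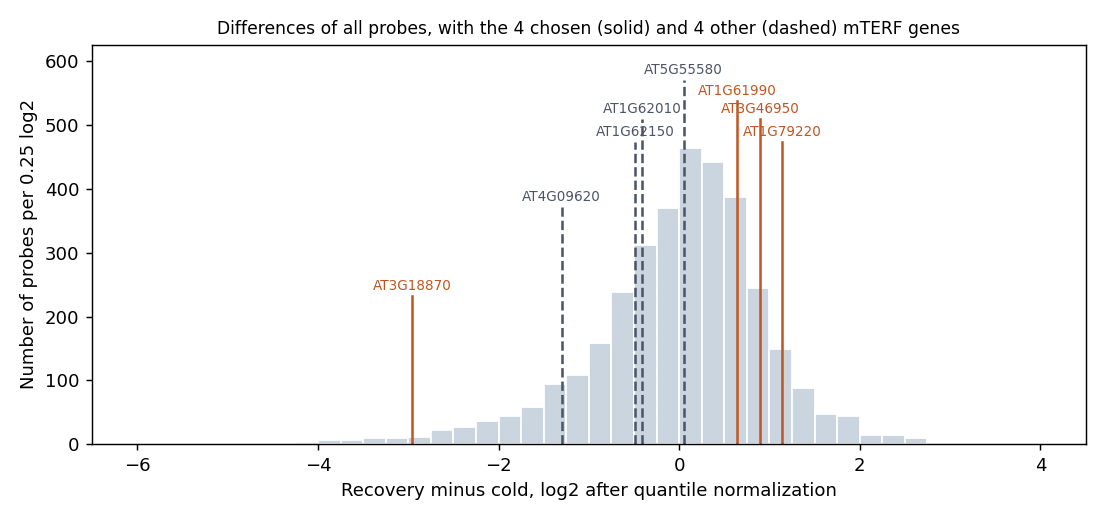
Number of probes by recovery minus cold difference (log2, quantile normalized, bins of 0.25), with the 4 chosen mTERF genes as solid lines and the 4 others as dashed lines. AT3G18870 at -2.96 lies in the thin left tail, while the 3 genes between 0.64 and 1.14 lie on the right shoulder of the distribution.

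Relative to all probes, AT3G18870 lay farthest out of the 8 genes: 1.28% of probes had a lower difference. For AT1G79220 91.9% of probes had a lower difference, for AT3G46950 86.9% and for AT1G61990 77.3%, so that 277, 452 and 782 probes respectively stood as high or higher.

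Related mTERF genes lie close together on chromosome 1. AT1G61990 lies on chromosome 1 next to AT1G61980, another mTERF gene, in a stretch of 30 annotated loci that holds 9 mTERF genes; AT1G62010 and AT1G62150 lie in the same stretch. AT1G79220 on chromosome 1, and AT3G18870 and AT3G46950 on chromosome 3, have no mTERF gene within 30 annotated loci. A further 6 probes list 2 to 4 genes each, all of them mTERF loci, and 1 of them lists both AT3G46950 and AT1G61990. That probe averaged 0.752 ± 0.212 for cold and 0.452 ± 0.0538 for recovery in deposited signal (SD, n = 3) and a quantile-normalized difference of 0.25 ± 0.20 (adjusted p = 0.337, limma), and cannot be assigned to either gene. Over the 6 probes differences ran from -0.67 to 0.50 with a median of -0.07, and 0 passed the limma test (0 higher and 1 lower at an unadjusted p under 0.05), where 21.4% of all probes passed as higher and 19.3% as lower. With 6 probes, nothing is read from that count. Whether the probes of AT3G46950 and AT1G61990 also bound transcripts of related genes was not tested.

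The genes were picked for their changes between the groups, and whether the variation within groups entered that choice is not known. The SD of quantile-normalized log2 values over the 6 samples of a group, pooled over both groups, was 0.142 for AT1G61990, 0.254 for AT1G79220, 0.413 for AT3G18870 and 0.446 for AT3G46950, and the median over all probes was 0.350. For AT1G61990 6.31% of probes had a smaller SD, against 67.2% for AT3G46950. The added constant narrows log2 differences between low signals, and whether that bears on these SDs was not tested. In recovery AT1G61990 averaged only 0.0912, with an SD of 0.109 on the log2 scale, and AT3G18870 averaged 0.0795. AT3G18870 was steady in cold, with an SD of 0.108, and scattered in recovery, with an SD of 0.574, where its signal was near the added constant. In recovery, samples 3 and 4 differed by 1.56 in AT3G18870 and by 1.01 in AT3G46950. Samples 1 and 2 differed by 0.65 and by 1.06 in the same genes, and samples 5 and 6 by 0.23 and 0.10.

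Recovery sample 4 was the lowest of the 6 recovery samples for 3 of the 4 genes, AT3G18870, AT1G79220 and AT3G46950, and also for AT1G62010. Over all probes this sample was the lowest for 16.1%, close to the share of other recovery samples, which ran from 14.6% to 23.0%. Its median deposited signal, 0.0989, was within the range of the group. Without it the quantile-normalized difference was -2.67 for AT3G18870, 1.21 for AT1G79220 and 1.07 for AT3G46950, with the same signs as with it. The genes were picked on this contrast, so nothing is read from those signs.

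Deviations from the group means were compared between the genes over the 12 samples. The genes were read from the same samples, and the samples matched best in pairs, so the correlations are descriptions. AT3G18870 and AT3G46950, whose group differences have opposite signs, deviated together within the groups, with r = 0.77 over 12 samples, 0.90 in cold and 0.85 in recovery, and 0.62 over the 11 samples without recovery sample 4. Of all probes, 0.931% had a higher r with AT3G18870. Their deviations had the same sign in 11 of 12 samples, the exception being cold sample 5. The other 5 combinations had r between -0.41 and 0.29 over the 12 samples. Within single groups of 6 some were larger in size: AT3G18870 with AT1G61990 had -0.74 in cold and -0.24 in recovery, AT1G79220 with AT1G61990 had 0.12 and -0.73, and AT3G18870 with AT1G79220 had -0.18 and 0.62.

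**Figure D5:**
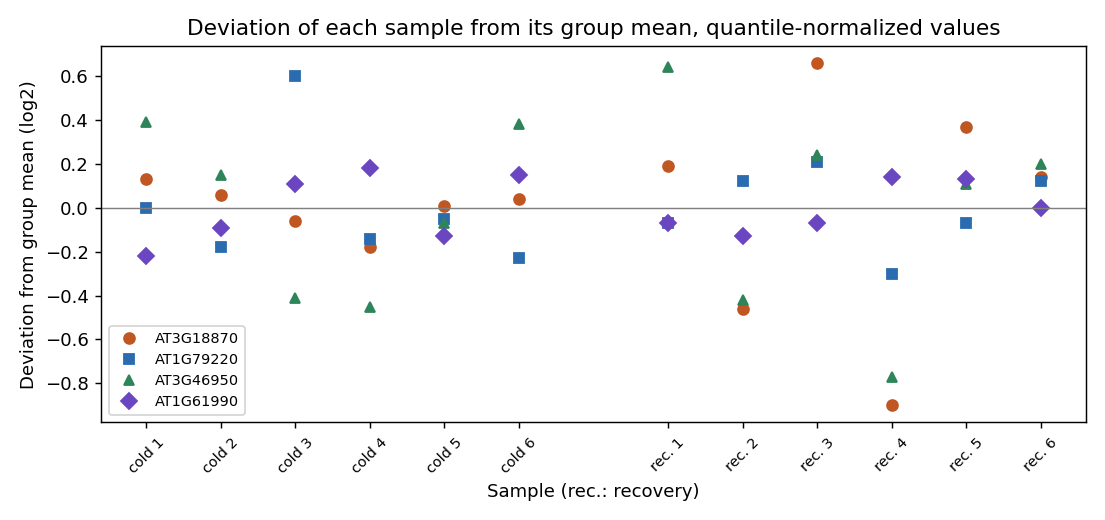
Deviation of each sample from its group mean (log2, quantile normalized) for the 4 genes in cold samples 1 to 6 and recovery samples 1 to 6. AT3G18870 (circles) and AT3G46950 (triangles) lie on the same side of 0 in 11 of 12 samples and are both lowest in recovery sample 4.

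For each of the 4 genes the 3 most similar genes were taken by Pearson correlation of the quantile-normalized values over the 12 samples, among 569 of the 690 probes with a single gene whose mean was above the lower quartile in at least 1 group. These correlations include the difference between groups that the genes were picked for, so the correlation of deviations from the group means is given beside them.

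AT3G18870 was most like AT1G32520 (r = 0.98, deviations 0.62), AT4G35660 (r = 0.98, deviations 0.65) and AT2G36480 (r = 0.97, deviations 0.55). All 3 were lower in recovery. AT1G32520 went from a deposited signal of 1.26 ± 0.103 to 0.245 ± 0.00424 (SD, n = 3), and its quantile-normalized difference of -1.31 was smaller in size than the -2.96 of AT3G18870. The differences of AT4G35660 and AT2G36480 were larger, at -5.53 and -4.47. Deposited averages were 20.6 ± 4.46 for cold and 0.369 ± 0.0502 for recovery in AT4G35660, and 4.02 ± 0.570 and 0.0974 ± 0.0765 in AT2G36480 (SD, n = 3), which was listed at 0 in 1 sample.

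AT1G79220 was most like AT3G32930 (r = 0.94, deviations 0.59), AT4G31930 (r = 0.94, deviations 0.60) and AT1G74470 (r = 0.93, deviations 0.41). AT4G31930 was listed at 0 in 2 samples, and its deposited averages were 0.114 ± 0.139 for cold and 0.582 ± 0.067 for recovery (SD, n = 3). AT1G74470 encodes the geranylgeranyl reductase that supplies the phytol chain of chlorophyll. The cold average was 2.53 ± 0.137 and the recovery average 2.86 ± 0.0765 in deposited signal (SD, n = 3), against a lower array median in recovery.

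AT3G46950 was most like LPA19 (AT1G05385; r = 0.89, deviations 0.79), AT2G32040 (r = 0.89, deviations 0.74) and SWAP70 (AT2G30880; r = 0.88, deviations 0.73). LPA19 encodes a chloroplast protein that takes part in the assembly of photosystem II. The cold average was 0.468 ± 0.0741 and the recovery average 0.330 ± 0.0403 in deposited signal (SD, n = 3). For these 3 genes the correlation of deviations was 0.73 to 0.79.

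AT1G61990 was most like AT2G22890 (r = 0.97, deviations 0.78), AT4G30680 (r = 0.96, deviations 0.75) and AT1G03810 (r = 0.95, deviations 0.59). All 3 had higher mean deposited signals in recovery, for example 1.69 ± 0.159 in cold and 2.25 ± 0.189 in recovery for AT2G22890 (SD, n = 3), whereas AT1G61990 itself had a lower one. None of the 12 genes named in this way is in the list of 35 mTERF loci.

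The lists of other organelle gene expression factors could not be set beside the mTERF genes. Of 24 loci for plastid and mitochondrial RNA polymerases, sigma factors, polymerase-associated proteins and Whirly proteins, and of 15 loci for plastid RNA processing, 0 had a probe of their own and 0 stood on probes with several genes.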

How the data were processed

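Array signals of 12 samples, 6 per group, were analysed. The deposited signal of each probe is linear and never negative; how the authors corrected, scaled or averaged it, and the meaning of 0, are not given in the sources used here. Probes were named through the platform annotation and, by gene identifier, a RefSeq gene table of assembly TAIR10.1, used for names and gene order only: 692 of 3439 probes listed a single gene, 690 of them with a known locus, 870 several genes, and 1877 were not listed. Sequences of probes, genes and proteins were not used here.

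Values were taken as log2(signal + 0.0415), the constant being the 10th percentile of positive signals, and quantile normalized. Consecutive samples (1 with 2, 3 with 4, 5 with 6) were averaged. In deviations from the group mean of each probe, each of the 12 samples correlated best with the other of its pair. These correlations of deviations, which are not correlations of whole profiles, were weak in recovery (-0.03 to 0.06, against 0.34 to 0.50 in cold). Recovery was compared with cold by limma 3.58.1 (R 4.3.3, lmFit, eBayes with trend) over 3 against 3 averages. Adjustment was by Benjamini-Hochberg over all probes at 0.05. The fit was also run on simulated data with unpaired samples and fewer changed probes, which cannot show how it behaves on data like these. Pentatricopeptide repeat genes, planned as a further list, were not analysed here because the tables give no descriptions. The 4 genes, the lists and the processing were chosen with earlier results of these data known. The text names the 4 genes, the 3 most similar genes of each and all measured members of lists with up to 6; 4 other measured mTERF genes were tested. Alternatives covered the scaling, the added constant, dim probes, the averaging, a replicate block, and leaving out single samples or averaged pairs. Plots used Python 3.11.15 with matplotlib 3.10.9.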

Additional observations from a re-analysis of the deposited data

Results flagged for a closer look

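Of 32 groups of 6 samples examined (8 mTERF genes, 2 conditions, deposited and quantile-normalized values), 1 held a sample far from the others; chance alone marks about 1 in 20. AT1G79220 in cold sample 3 had a quantile-normalized log2 value of -1.53, while the other 5 cold samples lay between -2.37 and -2.14; its gap to the nearest was 0.730 of the whole range. Its pair partner, cold sample 4, was at -2.28. Without cold sample 3 the difference between recovery and cold was 1.27, against 1.14 with it.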

How the results depend on the processing

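AT3G18870 kept a negative difference in all 28 alternative settings: -3.85 as deposited, -2.68 centred on medians, -2.73 scaled before the constant, -3.17 with the constant halved, -2.66 with it doubled, and from -3.18 to -2.67 with single samples or pairs left out (without recovery sample 3 and without recovery sample 4). AT1G79220 was at 0.04 as deposited and 1.33 scaled before the constant. AT3G46950 (-0.24) and AT1G61990 (-0.54) turned negative as deposited (median probe -0.86), and AT1G61990 was at 0.50 with the constant doubled; in the other settings these 3 genes moved by less than 1 SD between replicates. Probes that passed numbered 1399 (735 higher, 664 lower) and 2216 (192 higher, 2024 lower) as deposited, with 1237 higher and 535 lower when centred, 638 and 723 with cyclic loess, and 887 and 519 scaled before the constant. Probes whose groups did not overlap made up 34.9% after quantile normalization and 54.1% as deposited. Of the 4 other mTERF genes, 1 passed; 4 passed as deposited (all lower), and 2 centred (AT5G55580 higher, AT4G09620 lower), with cyclic loess, without dim probes and with 12 samples as independent. With a sample or pair left out, 1 to 2 passed, the second being AT1G62150 (without cold samples 1, 3 or 5, or recovery samples 2, 4, 6 or the pair 3 and 4). AT5G55580 changed sign as deposited (-0.50), with cyclic loess (-0.15) and with samples or pairs left out (-0.07 to 0.16). AT1G62010 lay between -0.74 and 0.01 when samples or pairs were omitted, the positive value being without recovery samples 3 and 4. Same-numbered pairs of cold and recovery did not deviate together (r = 0.06, 0.12 and -0.00), so a number names a sample only; a replicate block gave 1381 probes (708 higher, 673 lower). Signals near 0.0415 limit what can be measured for AT3G18870 and AT1G61990 in recovery, where they averaged 0.0795 and 0.0912. Scaled before the constant, the 1 that passed was AT5G55580 (0.91, higher), and AT4G09620 did not pass. The promoter motif search and the pentatricopeptide repeat list were not run.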
